A study of Mus musculus with 13 samples.

Results

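The genes described here are the molecular chaperones on the array that carry a heat shock, J-protein, chaperonin or BAG symbol. They were chosen by symbol alone, from probes whose annotation gives exactly 1 gene: the Hspa, Hspb, Hspd, Hspe and Hsph families, Hsp90, Dnaja, Dnajb and Dnajc, Cct2 to Cct8, Tcp1, and Bag1 to Bag6. The rule found 72 genes on 97 probes, out of 9669 named genes on the 20205 probes of the array. Of these, 61 genes on 76 probes had a value in both dye orientations of the 3 independent pairs of RNA sources and entered the fits, which covered 7968 genes in all. By class the 61 were 8 genes of the cytosolic chaperonin, 1 of the mitochondrial chaperonin, 2 of the Hsp90 family, 9 of the Hsp70 family, 30 J-proteins, 7 small heat shock proteins and 4 BAG genes. The genes left out were Cct2, Hspa5, Dnajc1, Dnajc4, Dnajc11, Dnajc13, Dnajc17, Dnajc25, Dnajc28, Hspb9 and Bag1.

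Chaperones help other proteins fold and keep them from clumping. Hsp70 proteins bind short stretches of an unfolded chain in a cycle driven by ATP. J-proteins bring clients to Hsp70 and start ATP hydrolysis, and BAG and Hsp110 proteins then help the nucleotide to leave. Hsp90 acts later on proteins that are nearly folded, such as kinases and receptors, and the cytosolic chaperonin is a ring of different subunits that encloses actin, tubulin and other chains. Small heat shock proteins hold unfolded proteins without ATP. In mouse embryonic cells many of these genes are expressed without stress, while heat shock factor raises a smaller group, among them Hspa1a, Hspb1, Dnajb1 and Hsph1, after heat or proteotoxic stress.

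The study hybridised mouse total RNA on 13 two-colour arrays, each with an NT1 source in one dye and a TBV source in the other, and its title places a Sall4 -/- genotype next to NT1. Per the labels, 5 arrays set NT1p14 against TBVp13 (here the p14/p13 pair), 4 set NT1p12 against TBVp12 (the p12/p12 pair), 2 set NT1 1 against TBV2, and 2 set NT1p12 against TBVp13 (the p12/p13 pair). NT1 was in Cy5 on arrays 1, 2 and 4 of the p14/p13 pair, on arrays 1 and 2 of the p12/p12 pair and on array 1 of the other pairs, and in Cy3 on the rest. The p followed by a number in a source name was taken to mean its passage. The labels give no tissue, cell type, treatment, age, clone number or culture, and the sources used here do not say how the Sall4 alleles were made. Arrays of a pair are repeats on the same named sources, and the p12/p13 pair shares both of its sources with other pairs, so 3 pairs are independent of each other. The p-values across them therefore reflect only how far these preparations differed, as far as the labels tell from 1 line of each kind, and that spread may be technical. In RNA from a mixture, fewer cells of a kind and less RNA per cell cannot be told apart.

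All values below are log2 ratios of NT1 over TBV, read from the deposited values as Cy5 over Cy3 and turned on arrays with TBV in Cy5. A pair value is the mean of the 2 dye orientations, so an effect of the dye cancels. Neither the log base nor the numerator is given in the sources used here, so all signs together could be the reverse. The relative sign of the pairs is not settled either: across all genes the p14/p13 and p12/p12 pair values correlated at -0.49, single arrays of the 2 pairs in the same dye orientation correlated at -0.36 to 0.24, and across the 61 chaperone genes the correlation was -0.48. Arrays of the same pair, once turned, correlated at -0.22 to 0.54, so repeats did not always agree in direction either. Genes are not independent replicates, and these correlations are descriptions. Because the relative sign of the pairs is unsettled, the main comparisons are also given with the p14/p13 signs turned. The arrays held 14314 to 18381 probes with a value, and their SD was 1.004 and 1.142 on arrays 4 and 5 of the p14/p13 pair against 0.34 to 0.81 on the others. Whole numbers made up 16.4% of the chaperone values and 19.3% of all values. By array they were 29.4% and 39.2% of all values on arrays 4 and 5 of the p14/p13 pair. On the p12/p13 arrays they were 40.4% and 40.3%, and on the rest 2.4% to 18.7%.

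The first question was whether the chaperone genes differed between NT1 and TBV in all preparations. None of the 61 genes passed limma's test against 0 on the 3 pairs (adjusted p = 1.00 for each, 0 of 7968 genes called, 0%). At an unadjusted p under 0.05 there were also 0 chaperone genes, beside 94 of all genes (1.18%). The mean ratios were small: 34 genes had a mean above 0 and 27 below, with a median of 0.007 against 0.001 for all genes. The sign was the same in all 3 pairs for 15 chaperone genes (24.6%) against 14.6% of all genes, with 10 above 0 and 5 below. Those above were Cct4, Cct8l1, Tcp1, Hspe1, Hspa4, Dnajb8, Dnajb14, Hspb11, Hspb2 and Bag6, and those below were Hspa1l, Hspa14, Dnajb11, Hspb3 and Hspb7. Some of these signs rest on a pair value close to 0. Tcp1 stood at 0.001 in NT1 1 with TBV2. In the p12/p12 pair Bag6 stood at 0.002, Cct8l1 at 0.003, Hspb3 at -0.008 and Hspa14 at -0.011. The sign of Dnajb8 rests on 1 of its 2 probes. The other, outside the fit, was below 0 in the p14/p13 pair (-0.305) and in NT1 1 with TBV2 (-0.164). Hspb2 lies outside the naming rule and was named after its values were seen. With the p14/p13 signs turned, 15 chaperone genes again had 1 sign in all 3 pairs, this time below the 30.2% of all genes. With the p12/p12 signs turned the shares were 39.3% and 40.3%, and with the NT1 1/TBV2 signs turned 11.5% and 12.9%, so the excess over all genes held for the signs as labelled and for no other reading tried. In each of these readings 0 genes passed limma's adjusted test, and 6, 11 and 0 chaperone genes had an unadjusted p under 0.05 in this order, beside 7.12%, 12.2% and 0.439% of all genes.

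The class contrast showed the cytosolic chaperonin highest in the p14/p13 pair. Its median there was 0.36, with 7 of 8 genes above 0, against 0.22 for Hsp90, -0.05 for Hsp70, -0.05 for the J-proteins and 0.02 for all genes. In the p12/p12 pair the medians were -0.01 for the chaperonin, -0.22 for Hsp90, -0.01 for Hsp70 and 0.04 for the J-proteins. In NT1 1 with TBV2 they were 0.07, 0.05, -0.02 and 0.07. The chaperonin median minus that of Hsp70 was 0.41, -0.001 and 0.09 in the 3 pairs, a mean of 0.17 ± 0.22 (SD, n = 3). Against the J-proteins it was 0.41, -0.05 and -0.004, a mean of 0.12 ± 0.26. Both mean differences were smaller than their SD between pairs. Against the 2 Hsp90 genes it was 0.15, 0.20 and 0.01, a mean of 0.12 ± 0.10, which was larger than its SD, and the chaperonin was higher on 9 of 13 arrays and lower on 4. With the p14/p13 signs turned that mean was 0.02 ± 0.18. The chaperonin median was above that of the J-proteins on 7 of 13 arrays, below on 4 and equal on 2, and above that of Hsp70 on 6, below on 5 and equal on 2. Hsp70 and the J-proteins stayed close to each other, with a mean difference of -0.05 ± 0.05. The small heat shock proteins had medians of 0.15, -0.01 and 0.08 and the BAG genes 0.15, 0.05 and -0.05. The difference in the chaperonin median between the p14/p13 and p12/p12 pairs was 0.37, but 0.17 with arrays scaled to one spread, without arrays 4 and 5 of the p14/p13 pair, or among genes measured on all 13 arrays. Class medians carry no test, since the genes were chosen with earlier results known. With the p14/p13 signs turned, the mean of the 3 medians went from 0.14 to -0.10 for the chaperonin and from 0.02 to -0.13 for Hsp90, while that of the J-proteins was 0.02 and 0.06.

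**Figure D1:**
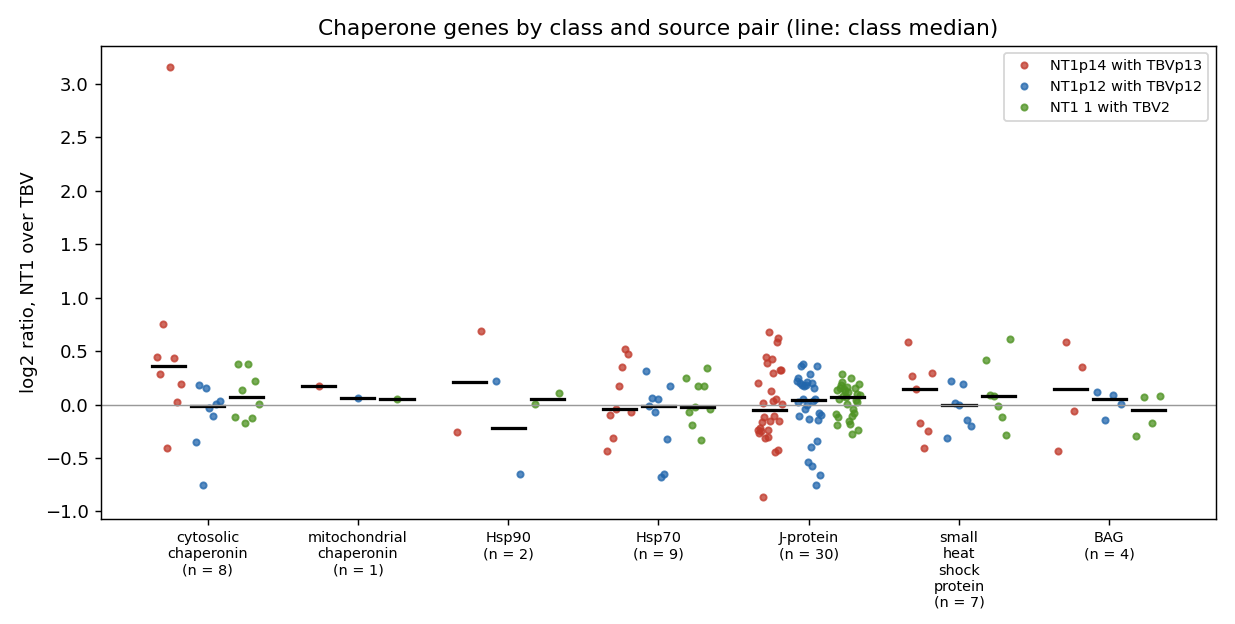
Pair values of the 61 chaperone genes by class, as log2 ratios of NT1 over TBV; each point is a gene, colours are the 3 independent source pairs and black lines are class medians. The chaperonin median of the p14/p13 pair lies at 0.36 with Cct7 alone above 3, and the J-protein medians lie between -0.05 and 0.07.

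The second question was whether the pairs differed from each other in their chaperone ratios. This was tested on all 13 arrays in limma with 1 coefficient per pair and a dye term, so the error is the spread of repeated arrays of the same RNA and the test says nothing on new preparations. The difference below is the p14/p13 ratio minus the p12/p12 ratio from that fit, and it can differ slightly from the difference of the pair values. Of the 61 genes, 16 were called (26.2%) against 24.0% of all genes, a share near the background. The difference was above 0 for 12 of them (19.7% of the 61, beside 13.1% of all genes called higher) and below 0 for 4 (6.56%, beside 11.0% called lower). Over all 61 genes 33 differences were above 0 and 28 below, with a median of 0.02 against 0.03 for all genes. Called higher were 1 chaperonin gene, 1 Hsp90 gene, 3 Hsp70 genes, 6 J-proteins and 1 BAG gene, and called lower were 3 J-proteins and 1 small heat shock protein. Of the called genes, only Dnajc2, Dnajc14, Dnajc19 and Hspb6 held no whole number among their values. The arrays of the 2 pairs did not overlap for 9 chaperone genes, 14.8% as among all genes (14.8%). The calls depended on single arrays. Without array 1, 2 or 4 of the p12/p12 pair, the number called fell from 16 to 1 each time, while all genes went from 1913 to 167, 138 and 118. The gene still called was Dnajc15. The 16 differences themselves kept their direction and stood at 73.5% to 116.8% of their full size: Hsp90b1 was then at 1.30, 1.27 and 1.21 against 1.33, with limma adjusted p of 0.051, 0.054 and 0.054, and Hspa8 at 1.10, 1.19 and 1.05 against 1.16. Without array 3 of that pair 20 chaperone genes and 2149 of all genes were called, and without array 5 of the p14/p13 pair 9 and 844. With the p14/p13 signs turned, 0 of the 61 genes and 5 of all genes were called (limma; the smallest adjusted p of the 16 genes was then 0.94), so the calls stand only for opposite signs of the 2 pairs as labelled.

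**Figure D2:**
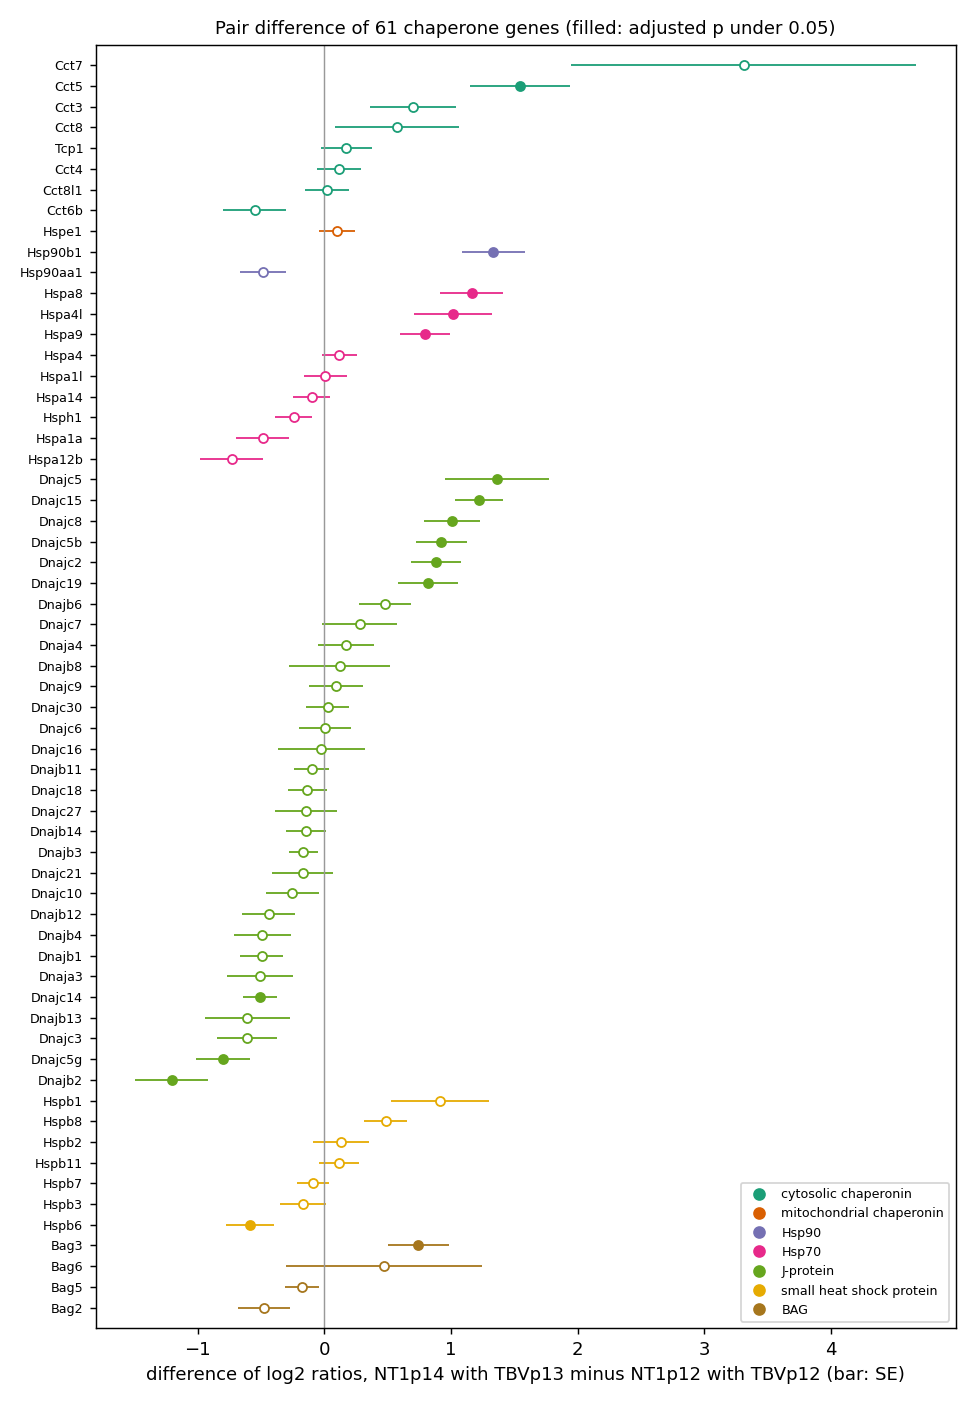
Difference of log2 ratios between the p14/p13 and the p12/p12 pair for each of the 61 chaperone genes, ordered by class; bars are standard errors from the array fit and filled points had an adjusted p under 0.05. Filled points lie on both sides of 0, at 12 genes to the right and 4 to the left, and Cct7 has the largest difference with the widest bar.

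Within single pairs, 8 chaperone genes differed from 0 in the p14/p13 pair (13.1%, against 16.9% of all genes): Hsp90b1, Hspa9, Dnajb6, Dnajc15, Dnajc5b and Bag3 were above 0, and Dnajb2 and Dnajc14 below. With no dye term 3 chaperone genes were called there, and with arrays scaled to one spread 1 was. In the p12/p12 pair 0 of the 61 were called by limma, against 0.816% of all genes. In NT1 1 with TBV2 and in the p12/p13 pair 0 of the 61 were called, where 1 gene of all was called in each (0.0126% and 0.0126%). Arrays 1 and 2 of the p12/p13 pair held 40.4% and 40.3% whole numbers, and 19 of its 59 measured chaperone genes stood at exactly 0.

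In the cytosolic chaperonin, Cct5 was the gene called between pairs. Its values were 0, 1, 0, 2 and 1 on p14/p13 arrays 1 to 5 and -1, -1, 0 and -1 on p12/p12 arrays 1 to 4. Arrays of the p14/p13 pair were at or above 0 and those of the p12/p12 pair at or below it, with shared values of 0. The difference was 1.54 ± 0.39 (SE, limma adjusted p = 0.024), and 11 of its 13 values were whole numbers. In NT1 1 with TBV2 Cct5 stood at 0.21 and 0.06, and its mean over 3 pairs was 0.05 ± 0.75 (SD, n = 3).

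Cct4, another ring subunit, stood above 0 in every pair. It read 0.13, -0.28, 0.32, 0.49 and 0.61 in the p14/p13 pair, -0.12, -0.17, 0.68 and 0.35 in the p12/p12 pair, 0.14 and 0.62 in NT1 1 with TBV2, and 0.02 and 0.14 in the p12/p13 pair. In all, 10 of 13 arrays lay above 0. The mean was 0.29 ± 0.10 (SD, n = 3), which was larger than the spread between pairs but did not pass (limma adjusted p = 1.00). The size went with the dye: arrays with NT1 in Cy5 gave 0.04 for Cct4, and those with TBV in Cy5 gave 0.53.

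Cct7 had the highest mean, 1.17 ± 1.73, and this came from p14/p13 arrays 4 and 5, where it read 7 and 3 against -0.37 on array 1 and no value on arrays 2 and 3. On the p12/p12 arrays Cct7 lay between -0.46 and 0.53, and its pair difference of 3.31 ± 1.36 was not called (limma adjusted p = 0.10). Cct3 had pair values of 0.44, -0.35 and -0.11 and Cct8 of 0.43, -0.11 and -0.13 in the same order of pairs, with differences of 0.70 and 0.57 that were not called. Tcp1, which encodes the founding subunit of the ring, had a mean of 0.08 ± 0.11 over its 3 probes. Cct6b, a subunit mostly of testis, and Cct8l1, a chaperonin-like gene, had means of -0.14 ± 0.28 and 0.08 ± 0.12. A step chosen after seeing the data left both out. All 6 remaining genes were then above 0 in the p14/p13 pair, with a median of 0.44. In the p12/p12 pair 4 of 6 were below 0, with a median of -0.07. Hspe1, the lid of the mitochondrial chaperonin and its only measured gene, was at 0.18, 0.06 and 0.05 (mean 0.10 ± 0.07, limma adjusted p = 1.00), although its arrays lay on both sides of 0 in each pair.

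**Figure D3:**
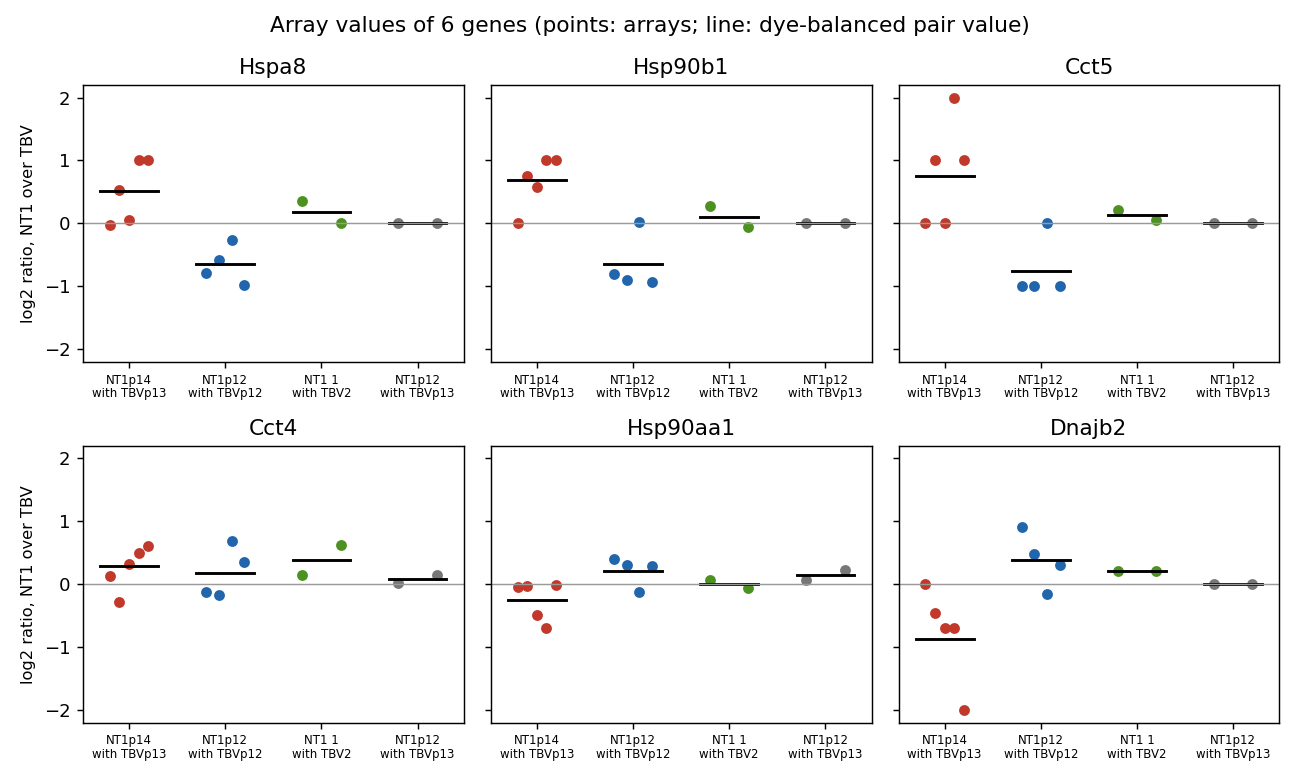
Array values of Hspa8, Hsp90b1, Cct5, Cct4, Hsp90aa1 and Dnajb2 as log2 ratios of NT1 over TBV, by source pair; points are arrays and lines are dye-balanced pair values. Hspa8, Hsp90b1 and Cct5 lie higher in the p14/p13 than in the p12/p12 pair, Dnajb2 lower, and Cct4 is above 0 in every pair.

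The 2 Hsp90 genes had differences of opposite sign, and 1 of them was called. Hsp90b1, the Hsp90 of the endoplasmic reticulum (also called Grp94), read 0.01, 0.76, 0.58, 1 and 1 on the p14/p13 arrays and -0.80, -0.89, 0.02 and -0.92 on the p12/p12 arrays. All p14/p13 arrays were above 0, and array 3 of the p12/p12 pair, at 0.02, just overlapped the lowest of them. The difference was 1.33 ± 0.25 (SE, limma adjusted p = 0.013). Hsp90aa1, the cytosolic Hsp90 that heat shock induces, read -0.05, -0.04, -0.49, -0.70 and -0.02 on the p14/p13 arrays and 0.40, 0.31, -0.13 and 0.28 on the p12/p12 arrays. Its difference of -0.48 ± 0.18 did not pass (limma adjusted p = 0.073). In NT1 1 with TBV2 Hsp90b1 was at 0.11 and Hsp90aa1 at 0.001, and the means over the 3 pairs were 0.05 ± 0.67 and -0.01 ± 0.24.

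Hsp90b1 belongs to a group of endoplasmic reticulum chaperones known to share a stress element in their promoters, and the promoter windows of the chaperone genes were searched for it. The search used 250 bases before to 50 after each gene start, from RefSeq on GRCm38.p6, and 61 of the 72 genes matched a window. The endoplasmic reticulum stress element was taken as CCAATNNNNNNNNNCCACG, on both strands. It occurred in 3 of the 61 windows (4.92%) and in 37 of all 27025 genes' windows (0.137%). As the element was already known from chaperones of this compartment, the contrast of these shares is no test. The 3 sequences are shown because Hsp90b1 is the called gene of its class and the other 2 genes act in the same compartment. Each is written 5′ to 3′ along the gene, with the element in capitals.
Hsp90b1, chr10:86705593-86705694, minus strand, element at -212 to -194 from the gene start: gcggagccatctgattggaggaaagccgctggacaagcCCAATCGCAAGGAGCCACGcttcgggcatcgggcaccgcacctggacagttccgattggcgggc
Dnajc3, chr14:118937782-118937890, plus strand, element at -105 to -87: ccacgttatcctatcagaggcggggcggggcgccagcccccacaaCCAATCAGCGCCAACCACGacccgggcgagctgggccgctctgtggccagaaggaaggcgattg
Hspa5, chr2:34771980-34772088, plus strand, element at -65 to -47: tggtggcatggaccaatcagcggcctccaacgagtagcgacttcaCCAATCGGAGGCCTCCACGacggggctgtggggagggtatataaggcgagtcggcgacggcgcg

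The genes with this element did not share 1 pattern. Dnajc3, an inhibitor of the eIF2alpha kinases that also acts as a J-protein in the endoplasmic reticulum, read -0.17, -0.44 and -1 on the 3 p14/p13 arrays that measured it and 0.44, 0.63, -0.57 and 0.13 on the p12/p12 arrays. Its difference was -0.61 ± 0.24, opposite in sign to that of Hsp90b1, and was not called (limma adjusted p = 0.085). Hspa5 (BiP), the Hsp70 of that compartment, had no value on p14/p13 arrays 3 and 5 and on p12/p12 array 3 and so entered no fit. It read -0.30, 0.21 and -0.17 on the p14/p13 arrays and 0.38, 0.23 and 0.29 on the p12/p12 arrays. A match is a description of these letters and not a bound site.

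Among non-members, 10 genes of endoplasmic reticulum folding served as context, and 7 were measured. Of these 7, 6 were called higher in the p14/p13 than in the p12/p12 pair and 0 lower, with a median difference of 1.06 against 0.03 for all genes. Serpinh1, the collagen chaperone, differed by 2.01 ± 0.33 and Pdia6, a disulphide isomerase, by 1.69 ± 0.35 (SE, limma adjusted p = 0.011 and 0.015). The others called were P4hb (1.06), Manf (1.06), Pdia4 (0.97) and Canx (0.70), and Creld2 (0.51) was not. Serpinh1 is highly expressed in collagen-making cells, and the fibroblast markers moved in the same direction. Of 12 fibroblast markers 9 were measured, with array medians of 0.08 to 1 in the p14/p13 pair and -0.58 to -0.09 in the p12/p12 pair, and 8 of 9 had a difference above 0, of which 6 were called by limma. This direction was not particular to fibroblast markers. All 9 measured pluripotency markers also had a difference above 0, 4 of them called higher by limma. The 4 measured trophectoderm markers had differences below 0, of which 0 were called. The values are ratios, so no marker's level, at 0 or otherwise, can be read from them. The part of fibroblast RNA in the chaperone ratios was not tested.

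In the Hsp70 family, 3 of 9 measured genes were called between pairs. All 3 were higher in the p14/p13 pair, beside 13.1% of all genes called higher. Hspa8, the constitutive cytosolic Hsp70, read -0.02, 0.53, 0.06, 1 and 1 on the p14/p13 arrays and -0.79, -0.58, -0.26 and -0.98 on the p12/p12 arrays. The 2 sets of arrays did not overlap. The difference was 1.16 ± 0.25 (SE, limma adjusted p = 0.017), and in NT1 1 with TBV2 Hspa8 stood at 0.35 and 0.002. Hspa9, the mitochondrial Hsp70, read 0.04, 0.17, 0.65, 0.88 and 0.51 and then -0.40, -0.56, 0.15 and -0.49, so array 3 of the p12/p12 pair overlapped the p14/p13 arrays. Its difference was 0.80 ± 0.20 (adjusted p = 0.023 by limma). Hspa4l, an Hsp110 relative that helps Hsp70 release its nucleotide, read 0.03, -0.18, 0.84, 1 and 0 and then -0.42, -0.64, -0.20 and -1.47. Its arrays did not overlap, with a gap of only -0.18 against -0.20, and its difference was 1.02 ± 0.31 (limma adjusted p = 0.038).

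The other measured Hsp70 genes were not called between pairs. Hspa1a, the heat-inducible Hsp70, had a value on 3 p14/p13 arrays, at -0.09, -0.28 and -0.43, and on 3 p12/p12 arrays, at 0.57, 0.47 and -0.39. Its difference was -0.49 ± 0.21 (limma adjusted p = 0.12). Hsph1, the inducible Hsp110, had a difference of -0.24 ± 0.15 (adjusted p = 0.23 by limma) and a mean of 0.02 ± 0.14. Hspa12b, a distant Hsp70 relative known from endothelial cells, read 0.04, 0.06, -0.13, -1 and -1 against 0.33, 0.35, 0.48 and 0.09, without overlap, and its difference of -0.73 ± 0.25 narrowly missed the threshold (limma adjusted p = 0.051). Hspa1l, a testis Hsp70, was below 0 on 11 of 13 arrays, with a mean of -0.05 ± 0.03. Hspa14, which works at the ribosome with Dnajc2, had a mean of -0.06 ± 0.05, and Hspa4, the general Hsp110, of 0.13 ± 0.07 with 11 of 13 arrays above 0. None of these means passed (limma adjusted p = 1.00 for each).

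The J-proteins, which were 30 of the 61 genes, held 9 of the 16 calls, in both directions, beside 24.0% of all genes called. Dnajc15, a J-protein of the mitochondrial inner membrane, read 0.18, 0.80, 0.40, 1 and 1 on the p14/p13 arrays and -0.56, -0.66, -0.31 and -0.63 on the p12/p12 arrays. Every p14/p13 array was above 0 and every p12/p12 array below. The difference was 1.22 ± 0.19 (SE, limma adjusted p = 0.011), the smallest adjusted p of the 61 genes, and NT1 1 with TBV2 stood at 0.18 and 0.15. Dnajc19, a J-protein of the mitochondrial import motor, had a difference of 0.82 ± 0.24 (adjusted p = 0.033 by limma) with array values of -0.12 to 0.94 in the p14/p13 pair and -0.74 to 0.20 in the p12/p12 pair. Dnajc19 lies outside the naming rule and was named after its values were seen.

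Other J-proteins called higher work at the ribosome, the spliceosome and vesicles. Dnajc2, the J-protein of the ribosome-associated complex, read 0.04, 0.67, 0.40, 0.70 and -0.16 and then -0.64, -0.49, -0.28 and -0.91, without overlap, for a difference of 0.88 ± 0.20 (limma adjusted p = 0.018). None of its values was a whole number. A second Dnajc2 probe, outside the fit, did overlap between the pairs. That probe read 0.623 and 0.978 on p14/p13 arrays 3 and 5, and -0.079, 0.855 and -0.572 on p12/p12 arrays 1, 3 and 4. Dnajc8, a spliceosome-associated J-protein, read -0.06, 0.71, 0.18, 1 and 0 and then -0.79, -0.70, -0.34 and -0.82, without overlap, for a difference of 1.01 ± 0.22 (adjusted p = 0.017 by limma). Both of its probes were called. Dnajc5, the cysteine string protein of secretory vesicles, read 0, 0, 0, 2 and 1 and then -1, -1, 0 and -1, and 11 of its 13 values were whole numbers. Its difference was 1.36 ± 0.41 (limma adjusted p = 0.038). Its paralogue Dnajc5b was at 0.92 ± 0.20 (adjusted p = 0.017 by limma), with all p14/p13 arrays at 0.15 or above and all p12/p12 arrays at -0.07 or below.

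The J-proteins called lower were Dnajb2, Dnajc5g and Dnajc14. Dnajb2, a neuronal J-protein that binds ubiquitinated clients, read -0.004, -0.46, -0.69, -0.69 and -2 on the p14/p13 arrays and 0.91, 0.48, -0.16 and 0.30 on the p12/p12 arrays. The arrays overlapped at array 1 of the first pair and array 3 of the second. The difference was -1.21 ± 0.29 (SE, limma adjusted p = 0.021). Dnajc5g, another paralogue of Dnajc5, had a difference of -0.80 ± 0.21 (adjusted p = 0.025 by limma), opposite to Dnajc5 and Dnajc5b, and was named after its values were seen. Dnajc14, a J-protein of the endoplasmic reticulum membrane, read 0.05, -0.23, -0.50, -0.18 and -0.49 and then 0.22, 0.52, -0.10 and 0.20, for a difference of -0.51 ± 0.13 (limma adjusted p = 0.025).

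By their means over 3 pairs the J-proteins split evenly, 15 above 0 and 15 below. The highest were Dnajb8, a testis J-protein, at 0.23 ± 0.14, Dnajb6, which keeps polyglutamine proteins from aggregating, at 0.18 ± 0.25, and Dnajb14, of the endoplasmic reticulum membrane, at 0.13 ± 0.10. The lowest were Dnajb11, a co-chaperone of Hspa5, at -0.15 ± 0.06, Dnajc3 at -0.11 ± 0.31 and Dnajb2 at -0.09 ± 0.68 (SD, n = 3). Dnajb8 read -0.95 and 2 on p14/p13 arrays 4 and 5. Its other probe, outside the fit, gave -0.305 in the p14/p13 pair and -0.164 in NT1 1 with TBV2. On p12/p12 arrays 1 and 2 that probe read 0.594 and 0.451. Dnajb1, the heat-inducible partner of Hspa1a, read -0.02, -0.12, -0.23, -0.59 and -0.37 against 0.18, 0.03, 0.42 and 0.37, without overlap, and its difference of -0.50 ± 0.17 did not pass (limma adjusted p = 0.055). It was named after its values were seen. The other 15 J-proteins in the fits had means between -0.09 and 0.12.

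Of the small heat shock proteins, Hspb6 (Hsp20) was called and was lower in the p14/p13 pair. It read 0.03, -0.12, -0.28, -0.47 and -0.97 on the p14/p13 arrays and 0.08, 0.55, -0.14 and 0.29 on the p12/p12 arrays, which overlapped. The difference was -0.59 ± 0.19 (SE, limma adjusted p = 0.046). Hspb1 (Hsp27), the heat-inducible member, read 0.13, 0.30, -0.29, 2 and 1 and then 0.07, -0.34, -0.14 and -0.84, for a difference of 0.91 ± 0.39 that was not called (limma adjusted p = 0.10). Hspb8, the partner of Bag3, was above 0 on 10 of 13 arrays, among them 0.76 and 0.46 in NT1 1 with TBV2 and 0.68 and 0.22 in the p12/p13 pair, but it lay at -0.33, 0.13, -0.35 and -0.23 in the p12/p12 pair. Its mean was 0.24 ± 0.41 and its difference 0.48 ± 0.17 (limma adjusted p = 0.059).

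The other small heat shock proteins had means from -0.23 to 0.19. Hspb11, which works in intraflagellar transport, was at 0.19 ± 0.09, Hspb2, a muscle member, at 0.08 ± 0.07, Hspb3, also of muscle, at -0.07 ± 0.10 and Hspb7, the cardiovascular member, at -0.23 ± 0.07 (SD, n = 3). For Hspb11, Hspb2 and Hspb7 the mean exceeded the SD between pairs in size, yet none of them passed (limma adjusted p = 1.00). Both Hspb7 probes had a mean below 0, at -0.08 and -0.37, but their pair differences took opposite signs.

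Among the BAG genes, Bag3, which links Hsp70 to Hspb8 and to selective autophagy, was called higher. It read 0.04, 0.47, 0.31, 1.13 and 0.93 on the p14/p13 arrays and -0.50, -0.31, 0.46 and -0.23 on the p12/p12 arrays. Every p14/p13 array was above 0, and array 3 of the p12/p12 pair overlapped them. The difference was 0.74 ± 0.24 (SE, limma adjusted p = 0.047). Bag6, which escorts tail-anchored membrane proteins, had a mean of 0.15 ± 0.18, and its p14/p13 value rests on array 4, at 4.18 against -0.80 to 0.02 on the other 4. Bag2, an inhibitor of the ligase Stub1, had a mean of -0.20 ± 0.29 and Bag5, an exchange factor, of -0.05 ± 0.13.

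A second promoter search addressed heat shock factor, since the inducible genes Hspa1a, Hspb1, Dnajb1, Hsph1 and Hsp90aa1 are its textbook targets. A strict element of 3 units, GAANNTTCNNGAA, was searched on both strands of the same windows. It occurred in 3 of 61 chaperone windows (4.92%) and in 179 of 27025 windows of all genes (0.662%), in Hspe1, Dnajb6 and Hsph1. The windows of Hspe1 and Dnajb6 are shown, with the element in capitals, because they hold it before or at the gene start.
Hspe1, chr1:55088014-55088116, plus strand, element at -89 to -77, matched on the opposite strand: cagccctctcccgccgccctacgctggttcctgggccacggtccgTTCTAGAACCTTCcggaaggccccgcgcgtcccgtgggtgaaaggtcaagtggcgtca
Dnajb6, chr5:29735807-29735909, plus strand, element at -46 to -34: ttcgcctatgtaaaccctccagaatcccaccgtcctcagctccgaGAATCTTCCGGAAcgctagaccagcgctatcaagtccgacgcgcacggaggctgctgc
Neither Hspe1 (difference 0.10 ± 0.14) nor Dnajb6 (0.48 ± 0.21) nor Hsph1 was called between pairs (limma adjusted p = 0.62, 0.10 and 0.23). Dnajb6 was called within the p14/p13 pair alone, at an adjusted p that limma puts just under 0.05.

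Genes with more than 1 probe in the fit showed how far single probes carry. Of 11 such genes, 6 had probes whose pair differences took opposite signs. For Hspa4 the probes gave -0.68 and 0.91, and limma called both (adjusted p = 0.036 and 0.012). For Hspb7 they gave -0.84 and 0.66 (adjusted p = 0.016 and 0.015 in limma). For Tcp1 the 3 probes gave -0.83, -0.26 and 1.34, of which the first and the last were called. Dnajb6 ranged from -0.64 to 1.43 over 4 probes, Dnajc6 from -0.47 to 0.71 and Hspa14 from -0.24 to 0.03. The averages of these genes near 0 therefore join unlike probes, and for genes with 1 probe in the fit the fit cannot show this. Some of those genes, among them Dnajc2 and Dnajb8, had a further probe that did not enter the fit. Among the called genes, both probes of Dnajc8 (0.93 and 1.09), Bag3 (0.57 and 0.92) and Hspa4l (0.72 and 1.73) and all 3 of Hspa9 (0.30 to 1.41) had the same sign. Both Dnajc8 probes were called, but only 1 of 2 for Bag3 and for Hspa4l and 1 of 3 for Hspa9. Whole numbers made up 21 of the 39 Hspa9 values.

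**Figure D4:**
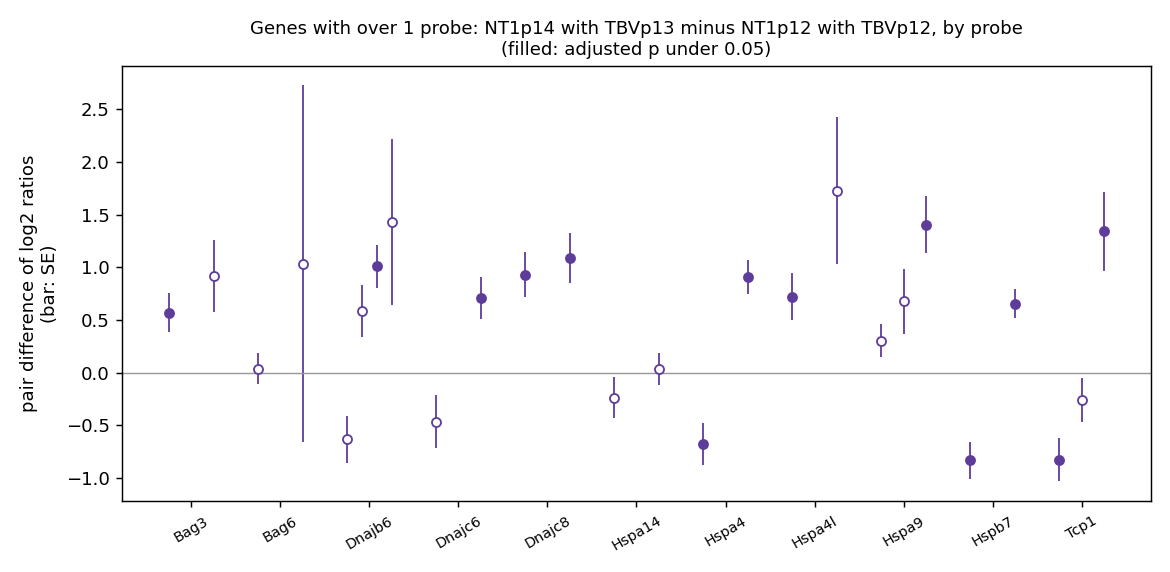
Difference of log2 ratios between the p14/p13 and the p12/p12 pair for each probe of the 11 chaperone genes with more than 1 probe in the fit; bars are standard errors and filled points had an adjusted p under 0.05. Probes of Hspa4, Hspb7 and Tcp1 lie on both sides of 0 with filled points on each side.

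Genes that work beside these chaperones gave mixed counts. Of 31 measured context genes, the 7 of the endoplasmic reticulum included, 11 were called higher in the p14/p13 than in the p12/p12 pair and 2 lower, with a median difference of 0.47. Of 8 measured genes listed with the Hsp90 co-chaperones, Trap1 among them, 2 were called higher and 2 lower. Ptges3 (p23, which closes the Hsp90 cycle) at 1.69 and Fkbp4 (a receptor immunophilin) at 1.36 were higher. Stip1 (Hop, which hands clients from Hsp70 to Hsp90) at -0.63 and Cdc37 (the kinase adaptor) at -0.53 were lower. Of 6 measured Hsp70 exchange factors and co-chaperones, St13 at 1.26 and Grpel1, the exchange factor of Hspa9, at 0.92 were higher and 0 were lower. Of 4 measured prefoldin genes and chaperonin helpers, Pfdn5 was called, at 0.41, and all 4 differences were above 0. None of the 4 genes listed with the mitochondrial proteases (Clpp, Lonp1, Clpb and Afg3l2) was called by limma between pairs. Neither of the 2 genes listed under heat shock regulation (Hsbp1 and Cryab) was called either. On the 3 pairs none of the 31 passed (limma adjusted p = 1.00).

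Other groups of housekeeping genes also differed between these arrays. The median of 38 ribosomal protein genes was 0, 0.05, 0, 0.96 and 0.91 on the p14/p13 arrays and -0.60, -0.53, 0 and -0.63 on the p12/p12 arrays, and that of 28 proteasome genes was 0 to 0.66 and -0.49 to 0. On array 3 of the p12/p12 pair both medians were 0. Of the 12 chaperone genes called higher, Cct5, Dnajc5, Dnajc19, Hsp90b1, Hspa9 and Bag3 stood at 0 or above it on that array. The other 6 stayed below 0, at -0.34 for Dnajc8, -0.31 for Dnajc15, -0.28 for Dnajc2, -0.26 for Hspa8, -0.20 for Hspa4l and -0.07 for Dnajc5b. The median difference between pairs was 0.96 for the ribosomal and 0.62 for the proteasome genes, with 19 of 38 and 12 of 28 called higher and 3 and 2 called lower. The 4 chaperone genes called lower, Dnajb2, Dnajc5g, Hspb6 and Dnajc14, went the opposite way to both medians. Pluripotency markers, of which 9 of 13 were measured, had array medians of -0.57 to 0 in the p14/p13 pair and -0.79 to -0.46 in the p12/p12 pair. Trophectoderm markers, 4 of 8 measured, had -0.06 to 0.64 and 0.26 to 0.86. The part of these groups, of signal strength or of cell content in the chaperone ratios was not tested.

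**Figure D5:**
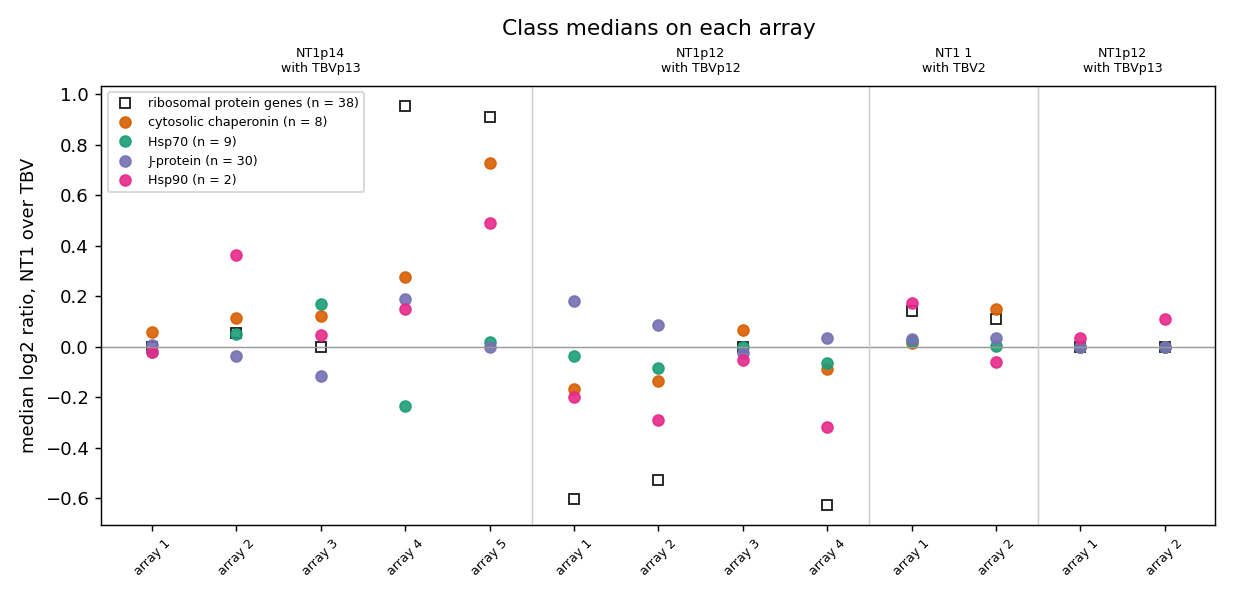
Median log2 ratio of NT1 over TBV on each of the 13 arrays for the cytosolic chaperonin, Hsp90, Hsp70 and J-protein genes, with ribosomal protein genes as open squares. The ribosomal median lies at 0.96 and 0.91 on p14/p13 arrays 4 and 5 and between -0.63 and -0.53 on p12/p12 arrays 1, 2 and 4; the J-protein median lies between -0.12 and 0.19 on every array.

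The dye itself had no called effect on any chaperone gene. Over the 3 pairs, limma called 0 of 7968 genes for an effect of the dye (0%), with a smallest adjusted p of 0.14 among the 61. At an unadjusted p under 0.05 there were 11 chaperone genes (18.0%) against 23.8% of all genes. In single orientations the chaperonin genes Cct3 and Cct8 changed sign, at -0.32 and -0.11 with NT1 in Cy5 only and 0.30 and 0.24 with TBV in Cy5 only, and so did Hspe1, at -0.19 and 0.38.

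The genes that entered no fit gave few values. Cct2, a ring subunit, had a value on 4 arrays, at -0.18 and 0.50 in the p12/p12 pair and -0.23 and 0.58 in the p12/p13 pair. Hspb9, a testis small heat shock protein, read 0, 0, 0, 1 and 1 on the p14/p13 arrays and -1 on the 3 p12/p12 arrays that measured it, and 10 of its 11 values were whole numbers. Bag1, an exchange factor of Hsp70, had values on 9 arrays, from -1 to 1. Dnajc4 had a single value, -6, on array 4 of the p12/p12 pair, Dnajc13 a single value of 0.22, and Dnajc1 and Dnajc17 had none. Dnajc11, Dnajc25 and Dnajc28 had values on 4, 8 and 11 arrays.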

How the data were processed

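Each of the 13 arrays carried 1 value per probe. The values are log2 ratios as deposited by the authors. Log base, numerator and normalisation within arrays are not given in the sources used here. Probes were named from the platform annotation: 11723 had 1 gene symbol, 806 several and 7676 none, and 437 of all probes had no value. Array medians were subtracted, arrays with TBV in Cy5 multiplied by -1, and the probes of a gene averaged per array. Tests used limma 3.58.1 in R 4.3.3, two-sided, with Benjamini-Hochberg adjustment over all genes and a threshold of 0.05. NT1 over TBV was tested against 0 on 3 pair values. The difference between pairs and the ratio within each pair were fitted on 13 arrays with a dye term. The scripts were tested on simulated data. Promoter windows were searched in Python 3.11.15, and figures drawn with matplotlib 3.10.9.

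Named were all measured genes of the chaperonin, Hsp90, Hsp70 and BAG classes, the 3 highest and 3 lowest J-proteins and small heat shock proteins by mean, and the called genes, up to the 10 largest per fit. The genes, lists and tests were chosen with earlier results of these data known. Precision depends on the number of arrays. Alternatives covered probes, pairs, dye, centring, scaling, missing and whole-number values, direction and left-out arrays.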

Additional observations from a re-analysis of the deposited data

Results flagged for a closer look

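In 6 of the 89 sets of 4 or 5 arrays, 1 array stood far from the others by Dixon's criterion, which chance alone meets in about 1 of 20 sets. In the p14/p13 pair these were Bag6 at 4.18 (the next array at 0.02), Cct8l1 at -0.60 (next 0.04) and Hspa1l at 0.47 (next -0.15). In the p12/p12 pair they were Cct5 at 0 (next -1), Dnajc5 at 0 (next -1) and Hsp90b1 at 0.022 (next -0.80), all on array 3. The rate of 1 in 20 assumes values on a continuous scale. Cct5 and Dnajc5 held only whole numbers there, with -1 on arrays 1, 2 and 4, so any other value on array 3 meets the criterion.

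The ratio differed between the p14/p13 and p12/p12 pairs, by limma's test on arrays, for 14 named genes. Being called was 1 of the grounds for naming a gene. Of all 61 chaperone genes 26.2% were called, a share near the 24.0% of all genes. It was higher in the p14/p13 pair for Cct5 (1.54), Dnajc5 (1.36), Hsp90b1 (1.33), Dnajc15 (1.22), Hspa8 (1.16), Hspa4l (1.02), Dnajc8 (1.01), Dnajc5b (0.92), Dnajc2 (0.88), Hspa9 (0.80) and Bag3 (0.74), and lower for Dnajb2 (-1.21), Hspb6 (-0.59) and Dnajc14 (-0.51). On the same arrays the median difference of 38 ribosomal protein genes was 0.96, and its part in these values was not tested.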

How the results depend on the processing

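On 3 pairs 0 chaperone genes were called under every alternative run. Over all genes the call count was 0 except for 3 when limma was fitted to 13 arrays with a random block for each pair (consensus correlation 0.25). No paired analysis was possible because the labels number no replicates, and each ratio already sets NT1 beside TBV on 1 array.

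The pair difference called 1913 genes and 16 chaperone genes. It called 1195 genes with no dye term, 586 and 9 with arrays scaled to one spread, 1097 and 7 among genes with no whole number (fewer genes tested: 4480 and 36), 695 and 8 on the 9 arrays of the 2 pairs, and 3739 probes and 25 chaperone probes when each probe was fitted. Without the 2 widest arrays, an alternative chosen after seeing the data like the last one, it called 541 and 8. With single arrays left out it called 118 to 2412 genes and 1 to 22 chaperone genes. The cause of these changes was not tested.

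With the p14/p13 signs turned, also chosen after seeing the data, it called 5 and 0, and these differences reversed: Bag3 -0.42, Cct5 -0.018, Dnajb2 0.41, Dnajc14 0.057, Dnajc15 -0.13, Dnajc5b -0.25, Dnajc5g 0.076, Hsp90b1 -0.022, Hspa9 -0.12 and Hspb6 0.18. Dnajc15 stayed called in the other 15 alternatives that tested it.

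Within the p14/p13 pair 1349 genes and 8 chaperone genes became 411 and 3 with no dye term and 73 and 1 with scaled arrays. Scaling gave 36 genes in the p12/p12 pair, 10 in NT1 1 with TBV2, and 1024 genes and 3 chaperone genes in the p12/p13 pair.

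Differences of class medians between the 2 pairs moved as follows. For the chaperonin, 0.37, they were 0.17 with scaled arrays, 0.17 without the 2 widest arrays and 0.17 among genes on all 13 arrays. With class means they were 0.72 for the chaperonin, 0.19 for Hsp70 and 0.026 for the J-proteins. With TBV in Cy5 they were 0.22 for Hsp70, 0.49 for the small heat shock proteins and -0.30 for BAG. With genes measured on all 13 arrays they were 0.11 for Hsp70 and 0.079 for the J-proteins, and with no whole number -0.48 for Hsp90 and -0.35 for BAG. Without the 2 widest arrays they were 0.11 for Hsp70 and -0.12 for the small heat shock proteins. With single arrays left out they ranged from 0.15 to 0.47 for the chaperonin, -0.085 to 0.12 for Hsp70, -0.15 to 0.074 for the J-proteins, -0.04 to 0.26 for the small heat shock proteins and -0.26 to 0.27 for BAG.

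The mean of 3 medians was 0.14 for the chaperonin, -0.011 with NT1 in Cy5 only, 0.25 with TBV in Cy5 only and 0.071 without the 2 widest arrays, each within 1 SD between pairs. It moved for Hsp70 to -0.056 with NT1 in Cy5, 0.028 with TBV in Cy5, 0.032 with genes on all arrays and 0.02 without the 2 widest arrays, and to -0.039 to 0.025 with single arrays left out. For BAG it moved to 0.20, -0.25 and, with no whole number, -0.12, and to -0.071 to 0.10 with single arrays left out. For the small heat shock proteins it moved to -0.02 without the 2 widest arrays. Centring moved no class median beyond its spread.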
